A study of Mus musculus with 8 samples.

Results

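The mitochondrial carrier family, solute carrier family 25, was followed in mouse primary hepatocytes treated for 6 h with glucagon, with an agonist of the bile acid receptor FXR, or with both. Members were all genes whose single symbol in the array annotation has the form Slc25a followed by a number. The annotation held 46 such symbols, 2 of which are not described here, and 44 genes of the 22180 with a symbol of their own remained. Each had 1 probe set. The rule reads names only.

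The arrays were Affymetrix MoGene 2.0 ST arrays, which measure transcripts by probes along the gene, and every value below is a log2 signal or a difference of log2 signals. All cells came from male C57BL/6J mice and were kept in culture medium with 100 nM dexamethasone, a synthetic glucocorticoid, so the controls carried it too. The 4 groups were DMSO (the solvent control), 100 nM glucagon, 2 µM GW4064, and 100 nM glucagon with 2 µM GW4064. Each group had 2 arrays, 1 from each of 2 experiments, and each experiment was 1 pool of cells from 3 mice, so n = 2 per group and a pool counts once. Differences are given with limma's standard error (SE) from a fit over all 8 arrays, with p-values adjusted over the 13845 genes tested, and a gene is said to have risen or fallen at an adjusted p below 0.05. A second fit adds the experiment as a block, so that treatments are compared within a pool, and its values stand beside the first where a call changes.

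Carriers of this family sit mostly in the inner mitochondrial membrane and exchange metabolites, nucleotides, cofactors and ions between the matrix and the cytosol. In the liver they connect the matrix and cytosolic steps of gluconeogenesis, urea synthesis, fatty acid oxidation and haem synthesis. Glucagon, a hormone of fasting, acts on hepatocytes through cyclic AMP. Cyclic AMP activates protein kinase A and the transcription factor CREB, which binds the palindrome TGACGTCA or its half-site TGACG. GW4064 is a synthetic agonist of FXR.

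Promoter windows of RefSeq on GRCm38.p6, 250 bases before to 50 bases after a start site, were matched by symbol for 34 of the 44 members, in 43 windows. The palindrome stood in 2 of these windows (4.65%), those of Slc25a25 and Slc25a36, against 1.79% of all 32851 windows. The half-site on either strand, which the palindrome also contains, stood in 12 windows of 11 members (27.9%), against 20.8% of all windows. Shown are the windows of both carriers whose signal rose with glucagon in the fit without the block (Slc25a22 and Slc25a45), of Slc25a33, the one carrier among those that fell with the block whose window held a half-site, and 1 window with the palindrome (Slc25a25). Capitals mark the palindrome or half-sites, and each sequence runs 5′ to 3′ on the strand of its gene. The Slc25a22 window is chr7:141437825-141438124, minus strand, the first of 3 windows of the gene. The Slc25a45 window is chr19:5877572-5877871, plus strand. The Slc25a33 window is chr4:149774218-149774517, minus strand. The Slc25a25 window is chr2:32424017-32424316, minus strand, the third of 3 windows of the gene.
Slc25a22: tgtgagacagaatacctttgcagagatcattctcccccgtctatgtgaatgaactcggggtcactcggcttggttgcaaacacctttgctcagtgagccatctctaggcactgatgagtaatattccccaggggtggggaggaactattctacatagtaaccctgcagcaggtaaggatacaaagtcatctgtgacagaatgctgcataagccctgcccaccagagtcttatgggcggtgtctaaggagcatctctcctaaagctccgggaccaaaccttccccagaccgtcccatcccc
Slc25a45: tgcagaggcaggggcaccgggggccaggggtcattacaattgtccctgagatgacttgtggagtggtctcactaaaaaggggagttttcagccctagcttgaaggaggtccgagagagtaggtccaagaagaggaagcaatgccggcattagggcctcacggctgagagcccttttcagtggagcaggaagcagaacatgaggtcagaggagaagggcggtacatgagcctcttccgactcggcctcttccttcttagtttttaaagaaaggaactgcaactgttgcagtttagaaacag
Slc25a33: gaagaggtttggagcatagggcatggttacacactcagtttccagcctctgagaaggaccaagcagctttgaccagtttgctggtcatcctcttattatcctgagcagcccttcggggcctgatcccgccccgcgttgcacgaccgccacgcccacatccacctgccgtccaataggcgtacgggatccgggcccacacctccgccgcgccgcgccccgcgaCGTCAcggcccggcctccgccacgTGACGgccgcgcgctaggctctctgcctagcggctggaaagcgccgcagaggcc
Slc25a25: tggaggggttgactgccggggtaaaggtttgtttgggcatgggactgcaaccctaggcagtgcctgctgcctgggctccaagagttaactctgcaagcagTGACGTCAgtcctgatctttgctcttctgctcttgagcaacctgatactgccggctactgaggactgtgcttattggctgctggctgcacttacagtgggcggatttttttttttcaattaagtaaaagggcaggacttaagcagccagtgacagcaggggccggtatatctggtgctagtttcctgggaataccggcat
These letters were found in none of the 3 windows of Slc25a22 and not in the window of Slc25a45. The windows of Slc25a17 and Slc25a30, which also fell with the block, held neither. No window was matched for Slc25a37, which fell with the block, or for Slc25a51, which rose with it, so their promoters were not read. In Slc25a33, 2 half-sites began 28 and 4 bases before the start site, and in Slc25a25 the palindrome began 150 bases before it. A match describes the sequence and is not evidence of binding.

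Of the 44 members, 36 passed the filter on low signals, set at the 40th percentile of an array (3.13 to 3.27) on at least 2 arrays. Slc25a34 passed on 2 arrays and Slc25a36 on 3, and the other tested members on all 8. The 8 members that did not pass were Slc25a2, Slc25a29, Slc25a31, Slc25a35, Slc25a41, Slc25a43, Slc25a53 and Slc25a54, whose signals lay between 2.46 and 3.17 on all arrays. They include the germ cell ADP/ATP carrier Slc25a31 and the basic amino acid carrier Slc25a29, and they were not tested. All 10 hepatocyte markers had a median signal above 7, as did 1 of 8 markers of Kupffer cells and macrophages and 0 markers of sinusoidal endothelium, stellate cells, cholangiocytes, lymphocytes and neutrophils, or fat cells. The GW4064 array of experiment 2 had correlations of 0.975 to 0.985 to the other 7 arrays over all genes tested. Among those 7 they were 0.976 to 0.997, so the ranges overlapped. Its median signal over all probe sets was the highest, 3.57 against 3.42 to 3.46 on the others. This array gave the lowest signal of the 8 for 15 of the 36 members, and the share over all genes was not counted. Differences of carrier genes printed below for glucagon or GW4064 are given both ways where they moved by over 1.5 times without it. Such differences without a GW4064 array are from the fit without the block unless the block is named. GW4064 then stands in 1 experiment only, so a difference between the experiments enters them.

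The first comparison set the 4 arrays with glucagon against the 4 without, averaged over GW4064. The glutamate carrier Slc25a22 and Slc25a45, a carrier with no agreed substrate, rose, and 0 members fell. The background over all genes tested was 0.816% up and 0.506% down. With the experiment as a block 3 members rose and 4 fell, against a background of 2.67% up and 3.08% down. Those added were Slc25a51, which carries NAD+ and rose, and the iron carrier Slc25a37, the pyrimidine nucleotide carrier Slc25a33, the peroxisomal carrier Slc25a17 and the uncoupling protein relative Slc25a30, which fell. Without the GW4064 array of experiment 2 and with the block, 3 rose and 5 fell (background 3.86% and 6.64%), the eighth being Slc25a32, the folate and FAD carrier. The median difference over the 36 members was 0.08 (0.05 without that array), against -0.004 over all genes. Of the 36 differences 20 were above 0 (55.6%), against 49.1% of all genes. They also numbered 20 after quantile normalization and after subtracting array medians. Fewer cells of a type and less RNA per cell cannot be told apart in these bulk samples.

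**Figure D1:**
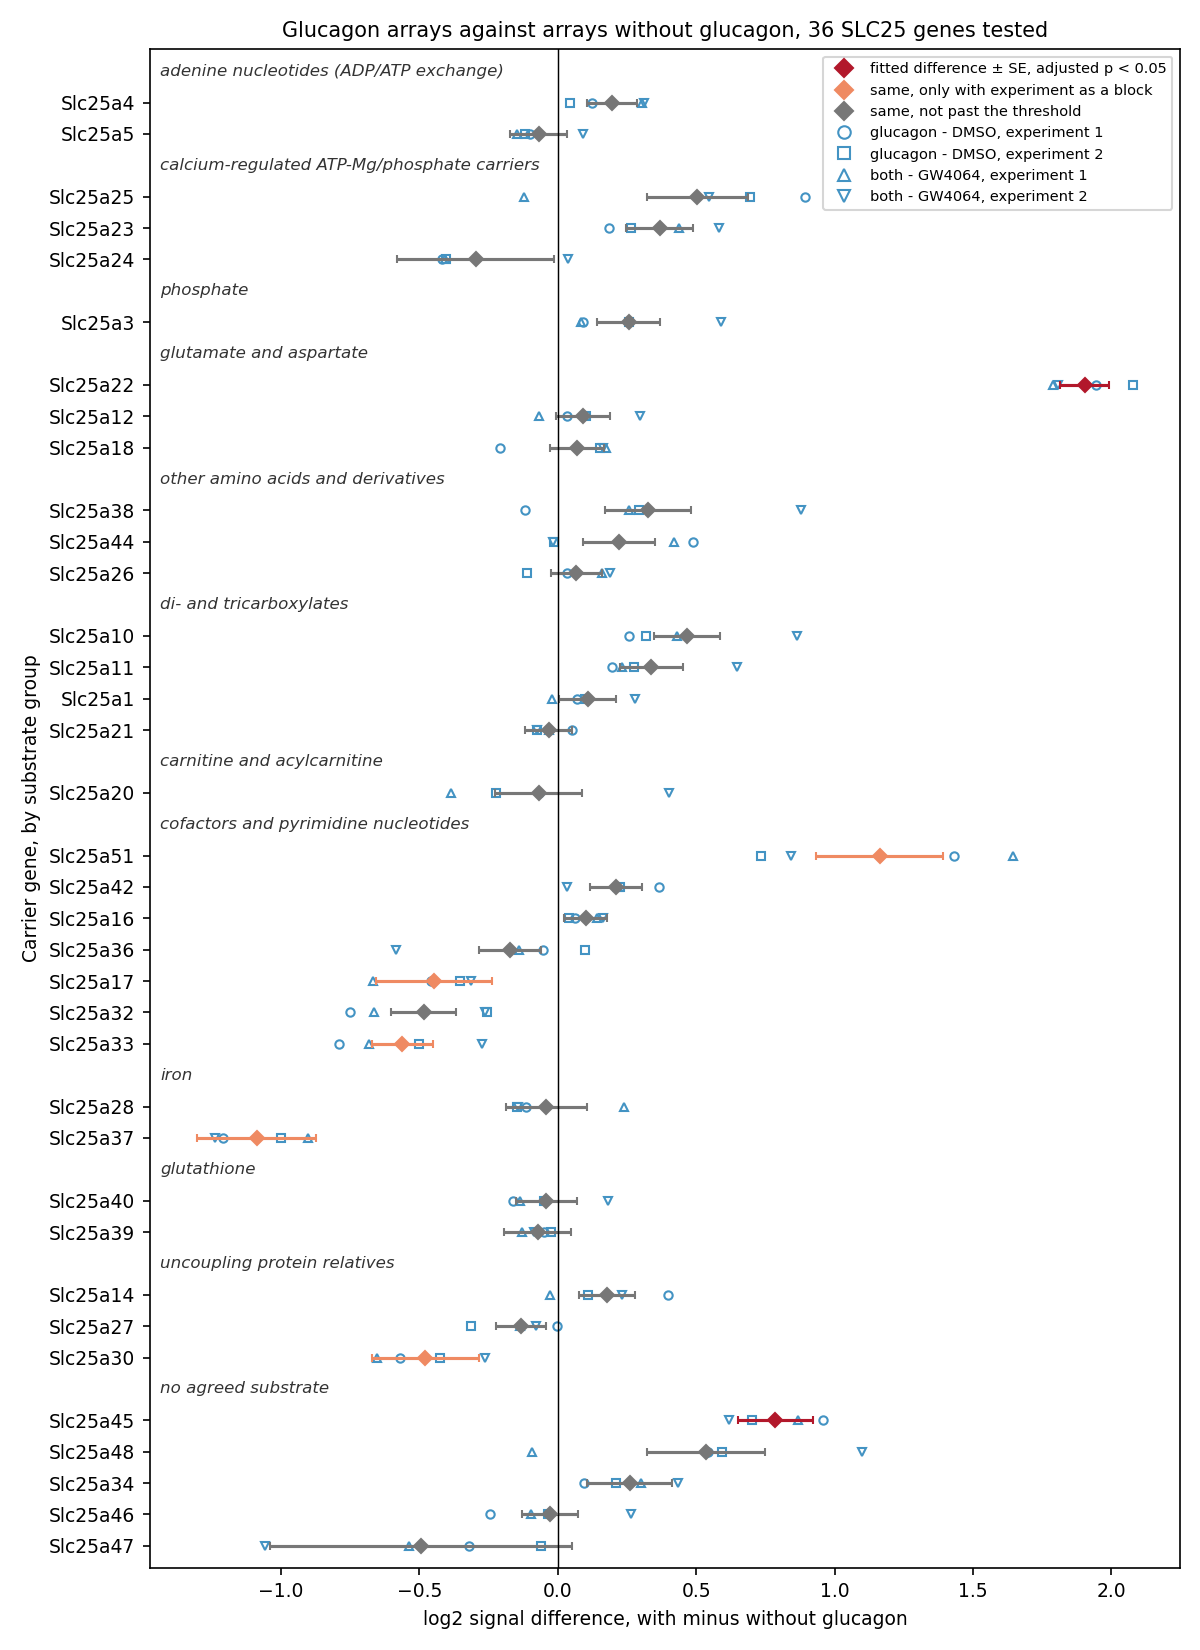
Log2 signal differences with minus without glucagon (x axis) for the 36 tested carrier genes (y axis), grouped by substrate. Diamonds are fitted differences with SE, red where the adjusted p was below 0.05, orange where it was so only with the experiment as a block, and open symbols are the 4 differences within an experiment; Slc25a22 stands farthest to the right at 1.90 and Slc25a37 farthest to the left at -1.09.

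Glutamate and aspartate carriers bring nitrogen and carbon for the transaminases and for urea synthesis across the membrane. Slc25a22 imports glutamate together with a proton. Its signal with DMSO was 7.16 in experiment 1 and 6.96 in experiment 2, and with GW4064 it was 7.12 and 7.02. With glucagon it was 9.10 and 9.04, and with both agents 8.91 and 8.83. All 4 arrays with glucagon lay above all 4 without, and the experiments gave nearly the same levels. The difference was 1.90 (SE 0.09; 3.74-fold; adjusted p = 0.000305), and within the experiments it was 1.94 and 2.08 against DMSO and 1.79 and 1.81 against GW4064. It passed the threshold in all 17 alternatives, with adjusted p up to 0.00702. Its relative Slc25a18, a second glutamate carrier, had signals of 3.35 to 3.70 near the filter level and a difference of 0.07 (SE 0.10). Slc25a12 exchanges aspartate and glutamate in the malate-aspartate shuttle. Its signal in experiments 1 and 2 was 6.999 and 6.983 with DMSO, 7.04 and 7.09 with glucagon, 7.12 and 7.08 with GW4064, and 7.06 and 7.38 with both agents. The sets with and without glucagon overlapped, and the difference was 0.09 (SE 0.10; adjusted p = 0.723). Neither Slc25a12 nor Slc25a18 passed the test for glucagon, with or without the block.

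Slc25a22 was also the member called in each pairwise comparison that adds glucagon. Against DMSO, glucagon alone raised it by 2.01 (SE 0.13; adjusted p = 0.00310), 1 member of 36 called against a background of 0.116% of all genes. Both agents against DMSO gave 1.81 (SE 0.13; adjusted p = 0.00411), again 1 member called, at a background of 0.123%. Both agents against GW4064 gave 1.80 (SE 0.13; adjusted p = 0.00439), with 1 member called at a background of 0.166%. The first of these calls was lost without either glucagon array (adjusted p up to 0.0738), and the other two without either array of the combined treatment (up to 0.102 and 0.120). With the block, Slc25a37 was called beside it for glucagon against DMSO (adjusted p = 0.0380; background 0.925%) and for both agents against GW4064 (adjusted p = 0.0440; background 1.06%). For both agents against DMSO the block called Slc25a22 alone (background 0.737%).

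Carriers of cofactors and pyrimidine nucleotides split in direction, with 1 that rose and 2 that fell among 7 tested with the block, and 0 called without it. Slc25a51 brings NAD+ into the matrix. Its signal was 6.18 and 6.81 with DMSO and 6.07 and 7.02 with GW4064 in experiments 1 and 2. With glucagon it was 7.61 and 7.55, and with both agents 7.72 and 7.86. The 4 arrays without glucagon differed by experiment, the 4 with glucagon did so less, and the sets did not overlap. The difference was 1.16 (SE 0.23; 2.24-fold; adjusted p = 0.0708), and with the block the adjusted p was 0.0159. In experiments 1 and 2 it was 1.431 and 0.735 against DMSO, and 1.644 and 0.843 against GW4064. It passed in 5 of 17 alternatives.

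Slc25a33 brings pyrimidine nucleotides into the matrix for mitochondrial DNA and RNA synthesis. Its signal was 9.01 and 8.83 with DMSO, 8.99 and 8.62 with GW4064, 8.22 and 8.32 with glucagon, and 8.31 and 8.34 with both agents. Every array with glucagon lay below every array without. The difference was -0.56 (SE 0.11; adjusted p = 0.0714, and 0.0315 with the block), and with the block and without the GW4064 array of experiment 2 it was -0.65 (adjusted p = 0.0111). The call was made in 6 of 17 alternatives. Slc25a36, a second pyrimidine nucleotide carrier, was above the filter level on 3 arrays and had a difference of -0.17 (SE 0.11; adjusted p = 0.545), or -0.07 without the GW4064 array of experiment 2.

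Slc25a17 sits in the peroxisomal membrane and carries coenzyme A, FAD and NAD+. In experiment 1 its signal was 9.33 with DMSO, 9.53 with GW4064, 8.88 with glucagon and 8.86 with both. In experiment 2 the same 4 signals were 8.77, 8.85, 8.42 and 8.54. Glucagon arrays were lower within each experiment, but arrays of the 2 experiments overlapped. The difference was -0.45 (SE 0.21; adjusted p = 0.388), and with the block the SE was 0.09 and the adjusted p 0.0381. Of 17 alternatives 2 called it, both with that block, and the experiment as a random block did not (adjusted p = 0.155). Without the GW4064 array of experiment 1 and without the block the difference was -0.28. The 4 glucagon differences within an experiment ran from -0.67 to -0.31. Slc25a32, which carries folate and FAD, had signals of 7.12 to 7.49 without glucagon and 6.73 to 6.96 with it. These ranges did not overlap. Its difference of -0.48 (SE 0.12) had an adjusted p of 0.133, and 0.0619 with the block. With the block and without the GW4064 array of experiment 2 it was -0.57 and passed, at an adjusted p of 0.0289. The coenzyme A carrier Slc25a42 and its relative Slc25a16 gave 0.21 (SE 0.09) and 0.10 (SE 0.08) and did not pass in either fit.

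The iron carriers supply haem and iron-sulphur cluster synthesis, and 1 of 2 fell with the block. Slc25a37, mitoferrin 1, had signals of 8.68 and 7.90 with DMSO, 8.54 and 8.40 with GW4064, 7.46 and 6.90 with glucagon, and 7.64 and 7.17 with both agents. Each glucagon array lay below each array without glucagon. The difference was -1.09 (SE 0.22), a 2.13-fold lower signal, with an adjusted p of 0.0721 and, with the block, 0.00559. It passed in 3 of 17 alternatives, each with the experiment as a block. The 4 glucagon differences within an experiment ran from -1.24 to -0.90. In erythroid cells this gene is the main mitochondrial iron importer, and of the 5 erythroid markers listed for a check of other cells 0 had a probe set of their own in the annotation, so erythroid RNA was not tested. Slc25a28 is mitoferrin 2. Its signal was 6.73 and 6.63 with DMSO, 6.61 and 6.48 with glucagon, 6.65 and 6.43 with GW4064, and 6.89 and 6.29 with both agents. These overlapped between treatments, and the difference was -0.04 (SE 0.15; adjusted p = 0.929), or -0.10 without the GW4064 array of experiment 2.

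Relatives of the uncoupling proteins were tested for 3 genes, and 1 fell with the block. Slc25a30 had signals of 9.97 with DMSO, 10.05 with GW4064, 9.40 with glucagon and 9.40 with both agents in experiment 1. In experiment 2 these were 9.40, 9.46, 8.97 and 9.20. Glucagon arrays were lower within each experiment, and the highest of them lay just below the lowest array without glucagon. The difference was -0.48 (SE 0.19; adjusted p = 0.324), with an SE of 0.09 and an adjusted p of 0.0382 with the block. Of 17 alternatives 2 called it, and the random block did not (adjusted p = 0.117). Slc25a14, also known as UCP5, had signals of 4.11 and 4.20 with DMSO, 4.51 and 4.31 with glucagon, 4.13 and 3.85 with GW4064, and 4.10 and 4.08 with both agents. The glucagon array of experiment 1 was its highest. Slc25a14 gave 0.18 (SE 0.10; 0.11 without the GW4064 array of experiment 2) and Slc25a27 gave -0.13 (SE 0.09), and neither passed for glucagon in either fit.

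**Figure D2:**
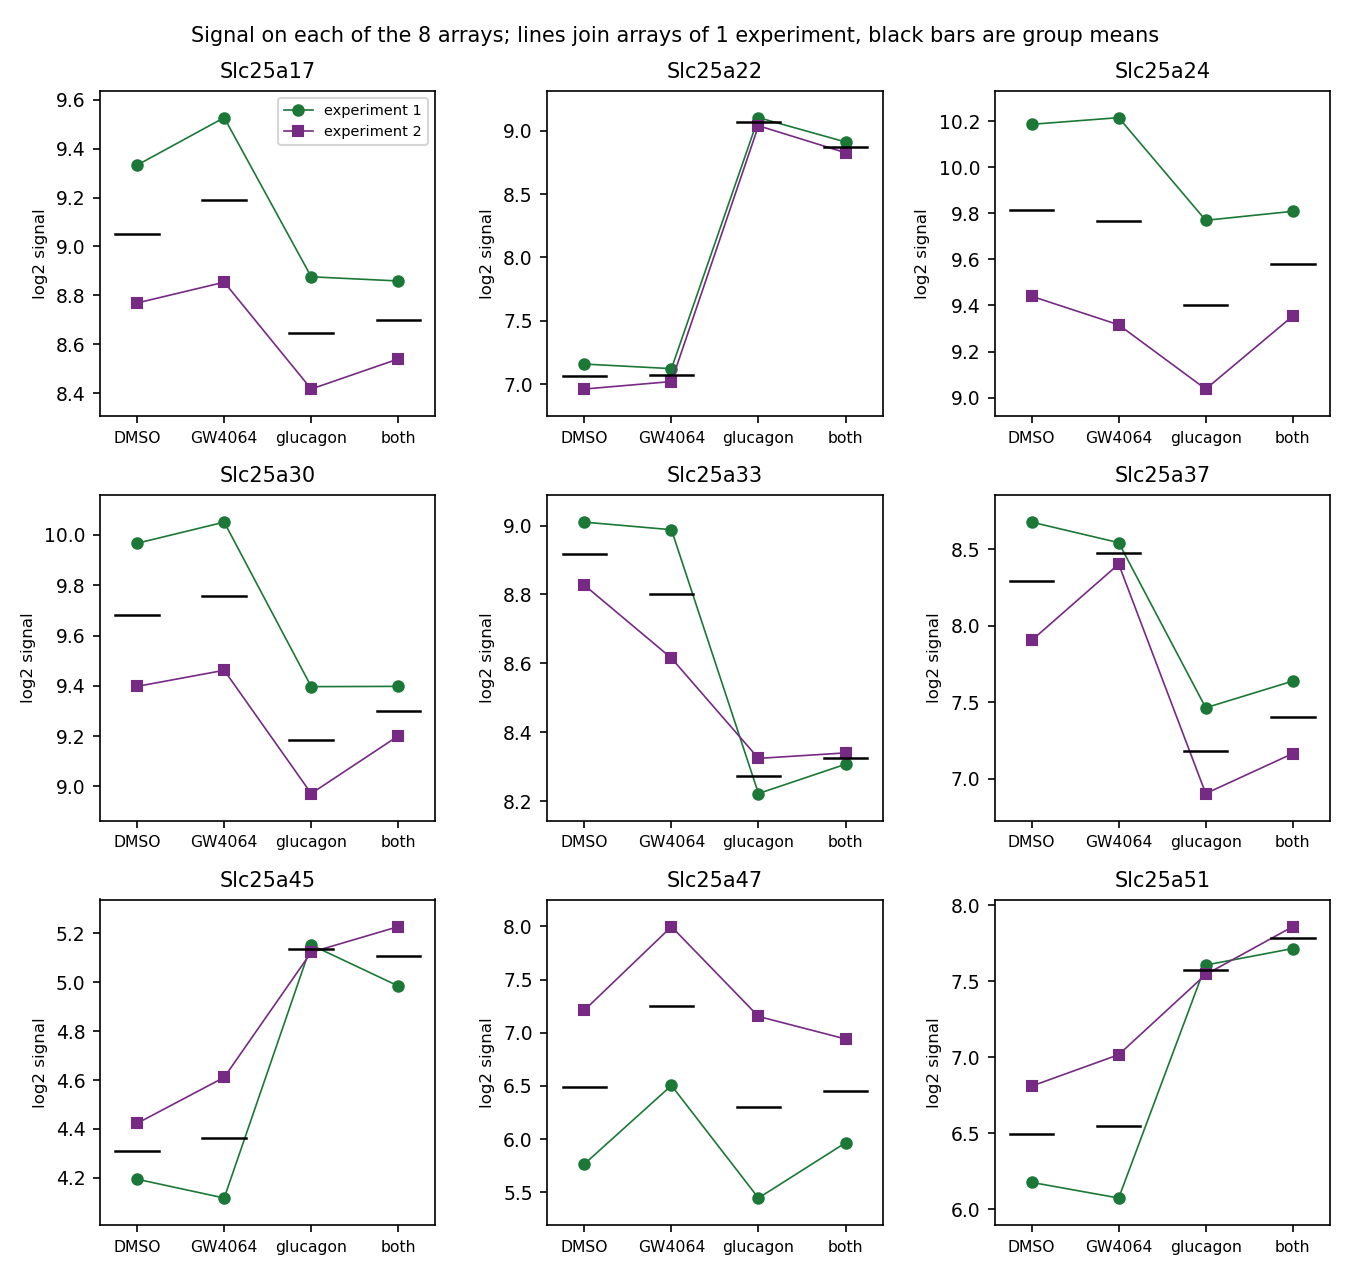
Log2 signal (y axis) on each of the 8 arrays by treatment (x axis) for 9 carrier genes called in at least 1 comparison, with experiment 1 in green, experiment 2 in purple and group means as black bars. Slc25a22 lies between 6.96 and 7.16 on the 4 arrays without glucagon and between 8.83 and 9.10 on the 4 with it, while Slc25a47 separates by experiment.

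Among the 5 tested carriers placed in no substrate group, Slc25a45 rose. Its signal was 4.19 and 4.42 with DMSO and 4.12 and 4.61 with GW4064, against 5.15 and 5.12 with glucagon and 4.99 and 5.23 with both agents. The sets did not overlap. The difference was 0.79 (SE 0.14; 1.72-fold; adjusted p = 0.0495, and 0.0106 with the block). It passed in 8 of 17 alternatives, and leaving out either array of the DMSO, glucagon or combined group ended the call (adjusted p up to 0.225). Slc25a48 had the next smallest p-value of these carriers. Its signal was 4.30 and 4.02 with DMSO, 4.84 and 4.62 with glucagon, 4.42 and 3.43 with GW4064, and 4.32 and 4.53 with both agents. The GW4064 array of experiment 2 was its lowest, and the 4 differences within an experiment ran from -0.09 to 1.10. Its difference was 0.54 (SE 0.21; adjusted p = 0.320), and 0.29 without that array. The fusion-related outer membrane protein Slc25a46 gave -0.03 (SE 0.10; -0.11 without that array) and Slc25a34 gave 0.26 (SE 0.15).

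The calcium-regulated ATP-Mg/phosphate carriers set the matrix pool of adenine nucleotides, and 0 of 3 tested passed for glucagon in the fits over all 8 arrays. Slc25a25 had signals of 6.50 and 6.22 with DMSO and 7.40 and 6.91 with glucagon. With GW4064 the signals were 6.96 and 6.28, and with both agents 6.84 and 6.83. Glucagon was higher than DMSO in both experiments, by 0.89 and 0.70, whereas adding it to GW4064 gave -0.12 and 0.55. The difference against DMSO was 0.79 (SE 0.26; adjusted p = 0.557) and passed with the block and without the GW4064 array of experiment 2, at an adjusted p of 0.0347. Averaged over GW4064 it was 0.50 (SE 0.18; adjusted p = 0.268), and 0.33 without that array. The change of the glucagon difference with GW4064 was -0.58 (SE 0.37; adjusted p = 1), and -0.92 (SE 0.29; adjusted p = 1.00) without it. Slc25a23 had signals of 6.27 and 6.57 with DMSO, 6.46 and 6.83 with glucagon, 6.15 and 6.11 with GW4064, and 6.59 and 6.69 with both agents. Glucagon was higher in 4 of 4 differences within an experiment, by 0.37 on average (SE 0.12; adjusted p = 0.217). Slc25a24, whose signals are given with the experiments, had a glucagon difference of -0.30 (SE 0.28; adjusted p = 0.686). Without the GW4064 array of experiment 2 and without the block it was -0.52, with GW4064 in experiment 1 only. The 4 glucagon differences of Slc25a24 within an experiment ran from -0.42 to 0.04.

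Of the di- and tricarboxylate carriers, which move malate, 2-oxoglutarate, succinate and citrate, 0 of 4 passed for glucagon in either fit. The dicarboxylate carrier Slc25a10 had signals of 4.13 and 4.27 with DMSO, 4.39 and 4.59 with glucagon, 4.07 and 3.66 with GW4064, and 4.50 and 4.52 with both agents. For the 2-oxoglutarate and malate carrier Slc25a11 they were 8.05 and 8.21 with DMSO, 8.25 and 8.49 with glucagon, 8.13 and 7.81 with GW4064, and 8.36 and 8.46 with both agents. In both genes the 4 arrays with glucagon lay above the 4 without. The differences were 0.47 (SE 0.12; adjusted p = 0.140, and 0.0720 with the block) for Slc25a10 and 0.34 (SE 0.11; adjusted p = 0.225) for Slc25a11. Without the array of GW4064 in experiment 2, and with the block, they were 0.33 and 0.22. The citrate carrier Slc25a1 gave 0.11 (SE 0.10; 0.02 without that array in the fit without the block) and the oxodicarboxylate carrier Slc25a21 gave -0.03 (SE 0.09; -0.01 likewise).

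The remaining substrate groups had 0 members called for glucagon in either fit. The ADP/ATP exchangers export the ATP made in the matrix. Slc25a4 had signals of 5.52 and 5.66 with DMSO, 5.64 and 5.70 with glucagon, 5.47 and 5.31 with GW4064, and 5.78 and 5.62 with both agents. Slc25a5 had 11.63 and 11.53 with DMSO, 11.53 and 11.41 with glucagon, 11.64 and 11.31 with GW4064, and 11.50 and 11.40 with both agents. Their differences were 0.20 (SE 0.09) and -0.07 (SE 0.10), the latter -0.15 without the GW4064 array of experiment 2. The phosphate carrier Slc25a3 supplies ATP synthase. Its signals were 8.66 and 8.55 with DMSO, 8.75 and 8.81 with glucagon, 8.60 and 8.17 with GW4064, and 8.68 and 8.76 with both agents. All 4 arrays with glucagon lay above the 4 others, and the lowest was the GW4064 array of experiment 2. The difference was 0.26 (SE 0.11), and 0.15 without that array.

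Slc25a20, the carnitine and acylcarnitine carrier, brings long-chain acyl groups in for oxidation. Its signals were 6.82 and 6.63 with DMSO, 6.75 and 6.41 with glucagon, 6.92 and 6.33 with GW4064, and 6.53 and 6.73 with both agents. The GW4064 arrays were its highest and its lowest, and the difference was -0.07 (SE 0.16), or -0.22 without that of experiment 2. Among other amino acid carriers, the glycine carrier Slc25a38 had signals of 5.97 and 5.85 with DMSO, 5.85 and 6.14 with glucagon, 5.79 and 5.14 with GW4064, and 6.04 and 6.02 with both agents. The branched-chain amino acid carrier Slc25a44 had 7.24 and 7.40 with DMSO, 7.73 and 7.39 with glucagon, 7.09 and 7.51 with GW4064, and 7.51 and 7.49 with both agents. Slc25a38 was lowest on the GW4064 array of experiment 2 and Slc25a44 on that of experiment 1. Their differences were 0.33 (SE 0.16) and 0.22 (SE 0.13), and 0.17 and 0.32 without the array of experiment 2. The S-adenosylmethionine carrier Slc25a26 gave 0.07 (SE 0.09), and 0.02 without it.

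Slc25a39 and Slc25a40 bring glutathione into the matrix. Slc25a39 had signals of 10.09 and 9.83 with DMSO, 10.04 and 9.81 with glucagon, 10.14 and 9.87 with GW4064, and 10.01 and 9.79 with both agents. For Slc25a40 they were 6.75 and 6.58 with DMSO, 6.59 and 6.53 with glucagon, 6.86 and 6.49 with GW4064, and 6.73 and 6.67 with both agents. Both genes were lower in experiment 2 with each treatment, as were 11 of the 36 members in all and 20.8% of all genes. Neither gene separated by glucagon. Their differences were -0.07 (SE 0.12) and -0.04 (SE 0.11), and both were -0.14 without the GW4064 array of experiment 2 and without the block. Within an experiment the glucagon differences ran from -0.13 to -0.02 for Slc25a39 and from -0.16 to 0.18 for Slc25a40.

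By ranges, 8 of the 36 members had all 4 glucagon arrays above all 4 others, at a background of 6.07% of genes, and 4 had them all below, at a background of 6.88%. Those above were Slc25a3, Slc25a10, Slc25a11, Slc25a16, Slc25a22, Slc25a42, Slc25a45 and Slc25a51, and those below were Slc25a30, Slc25a32, Slc25a33 and Slc25a37. The glucagon difference was also compared between the experiments. No gene passed (0 of 13845, and 0 of 36 members). An unadjusted p below 0.05 was reached by 1377 genes and by 3 members, Slc25a51, Slc25a32 and Slc25a44. The smallest adjusted p among members was 0.347. That fit has 2 residual degrees of freedom. The summed signal of 5 annotated cholangiocyte markers was 6.84 to 8.10 without glucagon and 6.30 to 6.61 with it. Of these markers 3 passed the filter and 0 were called, and the part of this sum in these results was not tested.

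GW4064 was then compared with DMSO, and added to glucagon. No member was called for GW4064 against DMSO, for both agents against glucagon, for GW4064 averaged over glucagon or for the interaction of both agents. The background was 0% of genes in each, with 373, 90, 216 and 149 genes at an unadjusted p below 0.05. Of the members, 0, 0, 1 and 0 had such a p, the 1 being Slc25a14 (-0.24, SE 0.10). Differences between GW4064 and DMSO among members ran from -0.44 (Slc25a38) to 0.76 (Slc25a47). Without the GW4064 array of experiment 2 and without the block they ran from -0.42 (Slc25a51) to 0.60 (Slc25a25), with Slc25a38 at -0.12 and Slc25a47 at 0.015. That fit sets GW4064 of experiment 1 against DMSO of both experiments. With the block and without that array the range was -0.30 to 0.70. Within the experiments GW4064 minus DMSO was 0.738 and 0.785 for Slc25a47, and -0.179 and -0.704 for Slc25a38. Differences between both agents and glucagon ran from -0.32 (Slc25a14 and Slc25a25) to 0.22 (Slc25a37). For Slc25a22, GW4064 gave 0.01 (SE 0.13) against DMSO, or 0.06 without the GW4064 array of experiment 2 and without the block. On top of glucagon it gave -0.20 (SE 0.13), and the interaction was -0.21 (SE 0.18).

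GW4064 was below DMSO or glucagon for 22 of 36 members on average, with a median of -0.04 (0.01 without the GW4064 array of experiment 2) against -0.02 over all genes. The difference was above 0 for 38.9% of members and 43% of all genes. Positive differences numbered 14 as deposited, 15 after quantile normalization and 10 after subtracting array medians. Without the GW4064 array of experiment 2 they numbered 19. Slc25a12 and Slc25a30 were higher with GW4064 in 4 of 4 differences within an experiment, and Slc25a3 and Slc25a26 lower. That is 2 of 36 members in each direction, against 5.66% of all genes higher and 8.05% lower. Their averages of 0.13, 0.09, -0.14 and -0.15 did not pass. Without the GW4064 array of experiment 2 and without the block they were 0.14, 0.24, -0.03 and -0.10. The 4 GW4064 differences of Slc25a30 within an experiment ran from 0.001 to 0.228.

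**Figure D3:**
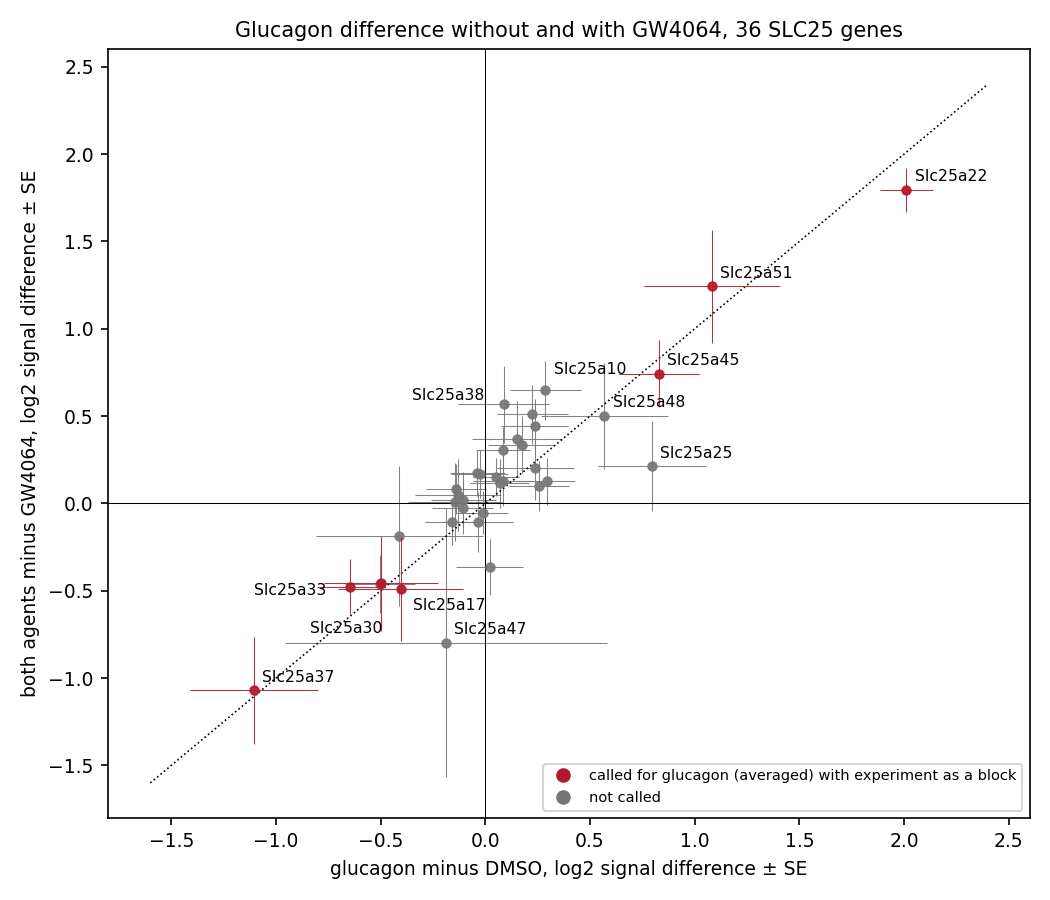
Log2 difference of glucagon against DMSO (x axis) and of both agents against GW4064 (y axis), with SE, for the 36 tested carrier genes; the 2 comparisons share no arrays, the dotted line marks equal differences and red marks genes called for glucagon averaged with the experiment as a block. Slc25a22 lies at 2.01 and 1.80, Slc25a37 at -1.11 and -1.07, and Slc25a25 at 0.79 and 0.21.

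The experiments were compared with the treatment in the fit. Of the 36 members, 1 was higher and 3 were lower in experiment 2, at a background of 5.16% of all genes called in either direction. Slc25a47, a carrier found mainly in liver, had signals in experiment 1 of 5.77 with DMSO, 5.45 with glucagon, 6.50 with GW4064 and 5.97 with both agents. In experiment 2 these were 7.21, 7.15, 8.00 and 6.94. All 4 arrays of experiment 2 lay above all 4 of experiment 1. The difference was 1.41 (SE 0.13; 2.65-fold; adjusted p = 0.00536). Leaving out either DMSO array, which takes the DMSO pair out of this comparison, ended the call of Slc25a47. Its SD between the 2 arrays of a group was 0.69 to 1.21, so its glucagon difference of -0.49 had an SE of 0.54, and 0.13 with the block (adjusted p = 0.0735). Without the GW4064 array of experiment 2 and without the block that difference was -0.12. In that fit GW4064 stands in experiment 1 only, where this gene was lower. The 4 glucagon differences within an experiment ran from -1.06 to -0.06.

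The members lower in experiment 2 were Slc25a24, Slc25a17 and Slc25a30. Slc25a24, an ATP-Mg/phosphate carrier, had signals of 10.19, 9.77, 10.22 and 9.81 in experiment 1 with DMSO, glucagon, GW4064 and both agents. In experiment 2 they were 9.44, 9.04, 9.32 and 9.35. The 2 sets of 4 did not overlap, and the difference was -0.71 (SE 0.10; adjusted p = 0.0146). Slc25a17 was lower by a difference of -0.50 (SE 0.09; adjusted p = 0.0295) and Slc25a30 by -0.44 (SE 0.09; adjusted p = 0.0487). Leaving out 1 array of a group takes the pair of that group out of this comparison, so either array gives the same result. Without the DMSO or the glucagon pair the call of Slc25a24 was lost. That of Slc25a17 was lost without the DMSO, the glucagon or the combined pair, and that of Slc25a30 without any of the pairs. Far fewer genes were also called over all genes without the DMSO, the glucagon or the combined pair. Without the GW4064 pair the differences were -0.60 for Slc25a37 and 0.37 for Slc25a34, and both passed.

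Over the family the median difference between the experiments was -0.09, against -0.02 over all genes, and 25 of 36 members were lower in experiment 2. Higher in experiment 2 were 30.6% of members and 45.5% of all genes. Members were lower in experiment 2 for 23 of 36 with DMSO, 21 with glucagon, 27 with GW4064 and 19 with both agents. With the GW4064 pair out of the comparison the median was -0.04, with 21 lower, against a median of -0.01 over all genes. Markers of other cells moved between the experiments as well. The summed signal of 8 annotated stellate cell markers was 6.80 to 6.91 in experiment 1 and 7.33 to 7.42 in experiment 2, and 3 of the 4 tested were called up. That of 8 annotated endothelial markers was 8.57 to 8.65 and 7.90 to 8.10, and 2 of the 6 tested were called down. In addition 2 hepatocyte and 2 Kupffer cell or macrophage markers were called up. Their part in the carrier differences was not tested.

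**Figure D4:**
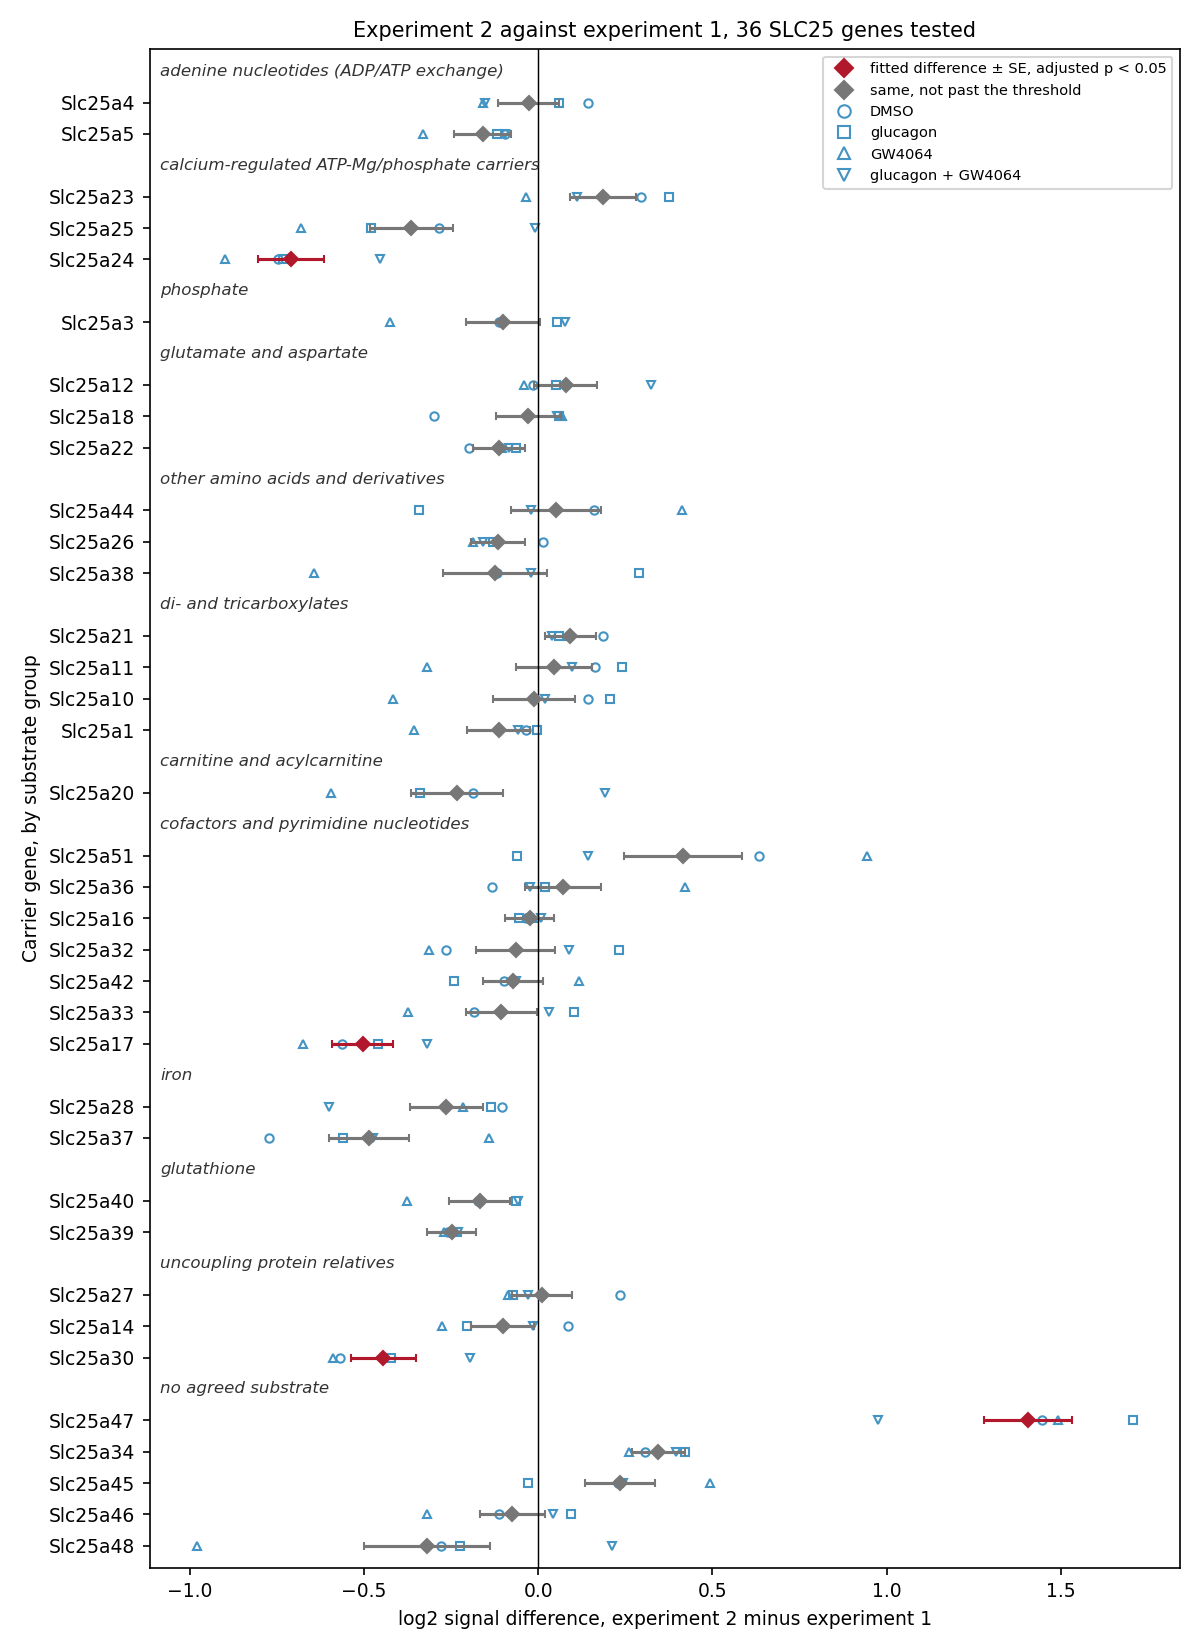
Log2 signal differences of experiment 2 minus experiment 1 (x axis) for the 36 tested carrier genes by substrate group (y axis), with fitted differences and SE as diamonds (red where the adjusted p was below 0.05) and the 4 treatments as open symbols. Slc25a47 stands at 1.41 and Slc25a24 at -0.71.

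Genes that work beside the carriers were read from lists. The lists were chosen with earlier results of these data known, so their shares beside the background are descriptions and not a test. Enzymes on either side of the glutamate, aspartate and malate carriers had 2 of 8 tested genes up with glucagon and 0 down, against 0.816% up and 0.506% down over all genes. Their median difference was 0.39, against -0.004 over all genes. Got1, the cytosolic aspartate transaminase, rose by 1.29 (SE 0.10; adjusted p = 0.00302) and Gpt2, the mitochondrial alanine transaminase, by 0.86 (SE 0.09; adjusted p = 0.00822). Glud1, glutamate dehydrogenase, gave 0.26 (SE 0.08; adjusted p = 0.191). Among enzymes beside the citrate and carnitine carriers 0 of 8 passed, with a median of 0.18, and with the block 1 rose, against 2.67% of all genes. That was Crat, carnitine acetyltransferase, at 0.48 (SE 0.10; adjusted p = 0.0793, and 0.0328 with the block). Cpt2, which re-forms acyl-CoA behind Slc25a20, gave 0.27 (SE 0.09; adjusted p = 0.238) and Acly, ATP citrate lyase, 0.36 (SE 0.12; adjusted p = 0.244).

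Other mitochondrial membrane transporters and shuttle proteins had 1 of 13 tested genes up and 0 down, against the same 0.816% and 0.506%. Cpt1a, which makes the acylcarnitines that Slc25a20 carries, rose by 1.83 (SE 0.17; adjusted p = 0.00612), beside a Slc25a20 difference of -0.07. The sideroflexins Sfxn5 and Sfxn1 gave 0.42 (SE 0.10; adjusted p = 0.116) and -0.29 (SE 0.12; adjusted p = 0.331). Newly made carriers enter the inner membrane through the TIM22 complex and its small chaperones. Of 12 such import genes 0 passed without the block, and 1 fell with it, against 3.08% of all genes: Timm9 at -0.54 (SE 0.17; adjusted p = 0.208, and 0.0471 with the block). The next, Timm13 and Tomm22, gave -0.20 (SE 0.10; adjusted p = 0.426) and -0.23 (SE 0.14; adjusted p = 0.507). Their median difference with glucagon was -0.14, and between the experiments -0.24, with 12 of 12 lower in experiment 2 and 1 called. Of all genes 45.5% were higher in experiment 2 and 5.16% were called. Of the family relatives with other symbols, Mtch1 and Mtch2 were tested and gave 0.02 (SE 0.09) and 0.06 (SE 0.09).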

How the data were processed

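The log2 signals of 41345 probe sets on 8 arrays were used as the authors deposited them. Per the labels, the authors processed the arrays in GeneSpring and pooled 2 technical replicates per sample. How they corrected background, summarised probes and normalized is not given in the sources used here. The log2 scale was read from the range of the values. The platform annotation gave 1 symbol for 23521 probe sets, several for 1814 and none for 16010. Genes were those with 1 symbol, read from the probe set with the highest mean, and 13845 passed the filter (a signal over the 40th percentile of the array, on 2 arrays or more).

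Group means were fitted over the 8 arrays with limma 3.58.1 in R 4.3.3 (4 residual and 3.06 prior degrees of freedom), with empirical Bayes moderation, 9 comparisons, two-sided p-values and Benjamini-Hochberg adjustment over all genes within each. The steps were tested on simulated data.

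Per the labels each experiment was 1 pool of cells divided over the treatments, so arrays of an experiment are paired. For the 6 pairs of groups, same-experiment deviations from group means had correlations of 0.350 to 0.620. The fit with the experiment as a block has 3 residual degrees of freedom. The number of arrays limits the precision.

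The members, substrate groups and lists were chosen with earlier results of these data known. All 8 signals are given for members called in any comparison in either fit and, in each substrate group, the 2 with the smallest p for glucagon. From each list the 3 genes with the smallest p were named. Promoter windows are RefSeq's. Alternatives were the block with and without the GW4064 array of experiment 2, the experiment as a random block, 2 other scalings, 2 other filters, all probe sets tested, a variance trend, only the groups compared, and each array left out.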

Additional observations from a re-analysis of the deposited data

How the results depend on the processing

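With the experiment as a replicate block, 2 members were called for glucagon against DMSO (128 of all genes) and 2 for both agents against GW4064 (147 genes). Without the block 1 was called in each (16 and 23 genes). For glucagon averaged 7 members were called with the block and 2 without it (797 and 183 genes). Leaving out the GW4064 array of experiment 2 as well gave more members in these comparisons and for both agents against DMSO. More genes were then called over all genes in each of them. The experiment as a random block (correlation 0.233) called 5 members for glucagon averaged, and 444 of all genes. Without a filter, over all probe sets, or with a variance trend, 1 member remained called there, Slc25a22 (170, 69 and 181 calls in all). Both agents against GW4064 had 0 members called when only those groups were fitted, and 3 of all genes. For experiment 2 against experiment 1, 4 members were called (715 genes). Over all probe sets 0 were (26 calls in all), and with a variance trend 7 (1059 genes). The block does not apply to that comparison, which already holds it.

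Leaving out 1 array at a time gave 0 to 1 members for glucagon against DMSO, 0 to 1 for both agents against DMSO, 0 to 4 for both agents against GW4064, 1 to 6 for glucagon averaged and 0 to 5 for the experiments. The highest counts for both agents against GW4064 and for glucagon averaged came when GW4064 of experiment 1 was left out, with the array that stood apart as the lone GW4064 sample; a lone sample was assumed to vary like the other groups. In each of these comparisons the calls over all genes also rose or fell with the array left out. Most genes were called where most members were, for both agents against GW4064, glucagon averaged and the experiments. The ranges of members called therefore do not describe the family apart from all genes. No call changed direction under any alternative listed. The comparisons of GW4064 with DMSO, GW4064 averaged, both agents with glucagon, and the interaction had 0 members called under every alternative run for them. Subtracting array medians moved the median of all genes to -0.10 for GW4064 against DMSO and to 0.10 for the interaction, and members above 0 from 14 to 8 and from 24 to 28. Over all genes, glucagon averaged called 183 without the block and 797 with it. Where calls moved with a variance setting, the cause was not tested.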
